A study of Drosophila melanogaster with 6 samples.

Results

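Hox genes encode homeodomain transcription factors that give each segment of the fly its identity, and the posterior ones, Ubx, abd-A and Abd-B, lie side by side in the bithorax complex. Hox proteins bind DNA with partners of the TALE homeodomain class, Extradenticle (exd) and Homothorax (hth). Homothorax carries Extradenticle into the nucleus. The zinc-finger genes teashirt (tsh) and tiptop (tio) are paralogues, and teashirt gives trunk segments their identity together with the Hox genes. These 7 genes, abd-A, Ubx, Abd-B, exd, hth, tsh and tio, were taken by symbol from the 14770 rows of the count tables. Each symbol was found on 1 row, and 4 of the 7 genes (abd-A, exd, tsh and tio) had enough counts to be tested.

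The libraries came from Drosophila melanogaster S2-DRSC cells, a line derived from late embryos. There were 4 libraries of cells labelled wild type (S2) and 2 of S2-DRSC-HA::AbdA cells, which carry a stably transfected HA::AbdA transgene (S2-AbdA). All cells received 10 µM copper sulphate for 24 h before poly(A) RNA was prepared. The sources used here give neither the promoter nor the extent of the transgene, nor whether the transfected line was 1 clone, and no line transfected without AbdA is named. The transgene and the transfection therefore cannot be told apart. S2 replicates 3 and 4 are kept as a set of their own, because their descriptions, unlike those of the other 4 libraries, do not mention the table of changed genes that the authors deposited. The labels do not state whether replicates were grown separately, so the p-values reflect the spread of these samples alone, and that spread may be technical.

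Library totals ran from 34233132 to 69858688 counts, so 3 counts, the floor used here, amounted to 0.0429 to 0.0876 CPM (counts per 1e+06 counts of a library) in a library. Pearson's r of log2(CPM + 1) over all genes reached 0.996 for S2 replicates 1 and 2, 0.982 for replicates 3 and 4 and 0.994 for the S2-AbdA pair, and ran from 0.946 to 0.977 across the S2 sets. Of 11 blood-cell markers, all were tested. Their summed level was 10056 and 8428 CPM in S2 replicates 1 and 2, 2066 and 5940 in S2 replicates 3 and 4, and 6065 and 6976 in S2-AbdA. The collagen genes Cg25C and vkg carried most of that sum (5337 and 3079 CPM in S2 replicate 1), and the phagocytosis receptor gene eater was at 84.9 and 66.1 CPM in S2 replicates 1 and 2 but 1.07 and 0.744 in replicates 3 and 4. The GATA factor gene srp, which defines blood cells, was between 60.9 and 370 CPM in every library, and nimC1 was at 0 in S2 replicate 3. Of 12 markers of other cell types the summed level was 42.9 to 108 CPM. The neuronal gene elav (16.1 to 39.3 CPM) and the muscle gene Mef2 (18.1 to 55.0 CPM) were the highest of them in every library. Both stood above eater in S2 replicates 3 and 4 and in S2-AbdA. In S2-AbdA the epidermal gene grh was below every S2 library, as 8.13% of all tested genes were.

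The transgene's own gene, abd-A (NCBI gene 42037, dm3 chromosome 3R, 12632936 to 12655474), was among the most abundant messages of the S2-AbdA cells. It held 819828 counts (17289 CPM) in S2-AbdA replicate 1, where no other gene held more, and 505607 counts (10909 CPM) in replicate 2, where only the translation elongation factor gene Ef1alpha48D held more. The first S2-AbdA library was thus 1.58 times above the second. In S2 replicates 1 and 2 abd-A held 996 and 2308 counts (29.1 and 52.7 CPM), which placed it at rank 4767 and rank 3353 of all rows. S2 replicate 3 held 0 counts, which at this depth allows up to 0.0555 CPM, and S2 replicate 4 held 3 counts (0.0429 CPM).

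The 4 S2 libraries, which carry the same label, were therefore not alike in abd-A. S2 replicates 1 and 2 were at 0.206% and 0.374% of the S2-AbdA mean, and S2 replicates 3 and 4 were at or below the floor. Between S2-AbdA and S2 replicates 1 and 2 the log2 fold change was 8.39 (SE 0.61, adjusted p = 5.92e-05, edgeR's quasi-likelihood test with Benjamini-Hochberg adjustment), so abd-A rose. A gene is said to rise or fall where that adjusted p was under 0.10. By this test 10.4% of the 9375 genes tested were called, 3.0% higher and 7.36% lower. With all 4 S2 libraries as 1 group the value was 9.39 and the call was lost (adjusted p = 0.267). Over the 3 counts in S2 replicates 3 and 4 together, the ratio of counts per total was 583714, with a 95% exact interval of 199736 to 2.83e+06 that covers counting error only. Against S2 replicates 1 and 2, abd-A in S2 replicates 3 and 4 was lower past the test (adjusted p = 2.48e-05), where 37.0% of all genes differed, 18.1% higher and 18.9% lower.

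**Figure D1:**
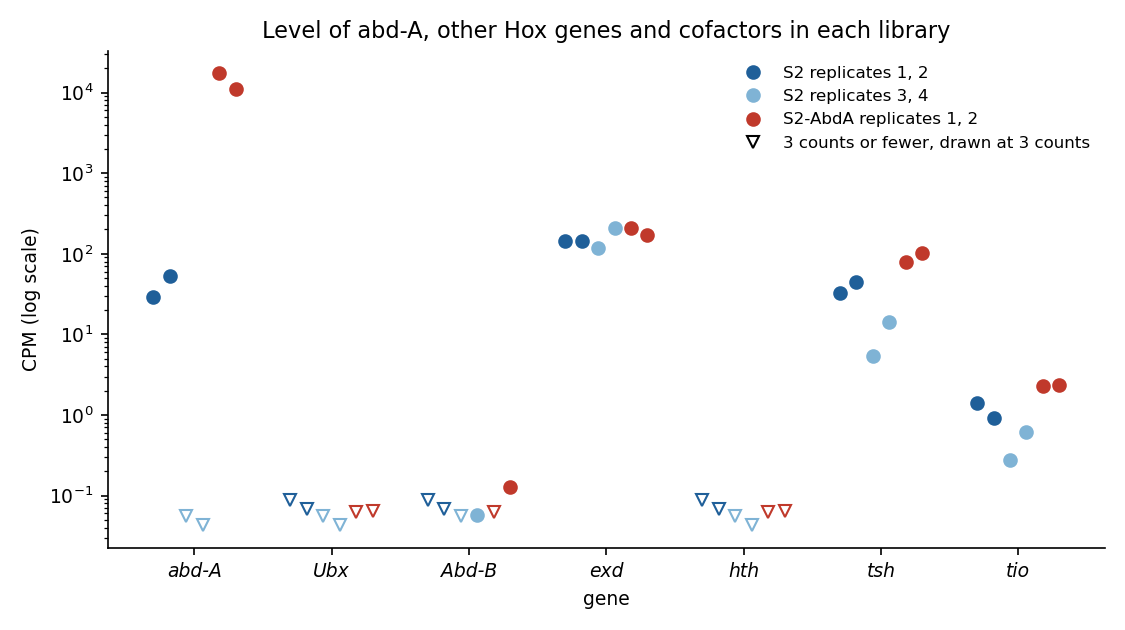
Level in CPM on a log axis of the 7 genes in each of the 6 libraries (dark blue, S2 replicates 1 and 2; light blue, S2 replicates 3 and 4; red, S2-AbdA), with open triangles at the floor for 3 counts or fewer. For abd-A the S2-AbdA libraries are at 17289 and 10909 CPM and S2 replicates 1 and 2 at 29.1 and 52.7, whereas Ubx and hth sit at the floor in every library.

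A search for rows that reached 10 CPM in each S2-AbdA library but summed to 10 counts or fewer over S2 replicates 3 and 4 found 2 besides abd-A. This search was added after the values were seen. CG31148, which RefSeq now calls Gba1a, held 2, 4, 5 and 3 counts in S2 replicates 1 to 4, and 670 and 1003 in S2-AbdA. CG15044 held 9, 7, 2 and 7 counts in S2 and 1296 and 1083 in S2-AbdA. Neither passed the test between the S2 sets (adjusted p = 0.962 and 0.144), where abd-A did. As a share of S2-AbdA, S2 replicates 1 and 2 stood at 0.419% for CG31148, 0.834% for CG15044 and 0.290% for abd-A. With at most 9 counts in an S2 library, the other 2 rows are too scarce there to show whether they follow abd-A. The origin of the abd-A counts in S2 replicates 1 and 2 was not tested.

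The rest of the bithorax complex gave next to no RNA in any library, with or without the transgene. From the start of Ubx to the end of Abd-B (dm3 chromosome 3R, 12482345 to 12797958) the tables hold 12 rows. The 11 rows other than abd-A held 26 counts in all over the 6 libraries, no row had more than 6 in a library, and 5 rows were at 0 throughout. The Hox gene Ubx (NCBI gene 42034, 12482345 to 12560348), which specifies the posterior thorax, held 1 count in S2 replicate 4 and 0 in the other 5 libraries. In the S2-AbdA libraries its 0 counts allow at most 0.0633 and 0.0647 CPM. Abd-B (NCBI gene 47763, 12752932 to 12797958), the Hox gene of the most posterior segments, held 1, 2, 0 and 4 counts in S2 replicates 1 to 4, and 1 and 6 in S2-AbdA. The groups overlap, and at this depth no difference was detectable in either gene. The noncoding RNA rows bxd and iab-4 were at 0 in all libraries, and iab-8, whose annotated span lies beside abd-A, held 4 counts in S2 replicate 4 and 1 in S2-AbdA replicate 1. CR43617 and Glut3, a glucose transporter gene inside the complex, held 3 and 2 counts, all in S2 replicate 4. No row overlaps the annotated span of abd-A, so the abd-A counts cannot have been shared with an overlapping neighbour of these tables.

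**Figure D2:**
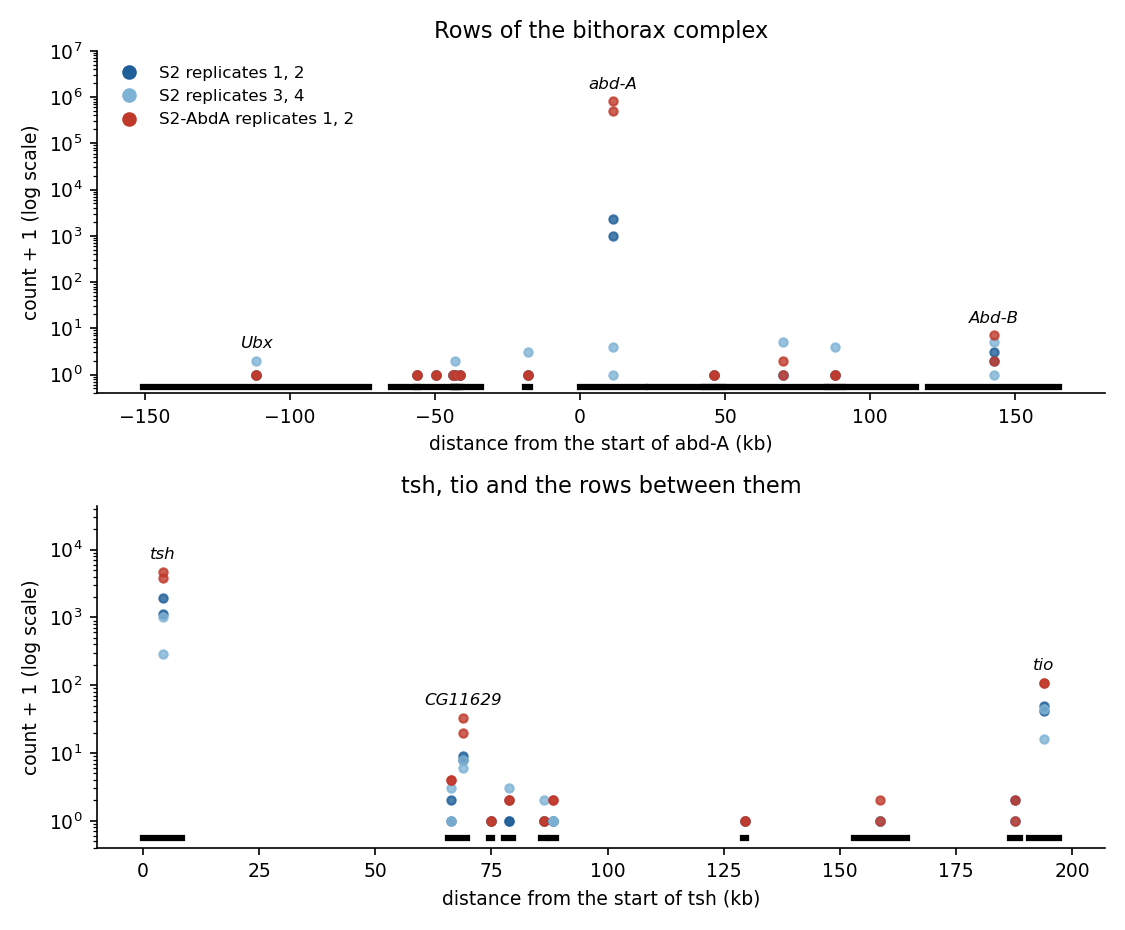
Count + 1 on a log axis for each row of the bithorax complex (top, against distance from the start of abd-A in kb) and for tsh, tio and the rows between them (bottom, against distance from the start of tsh in kb), 1 point per library and black bars for the annotated spans. Of the bithorax rows abd-A alone leaves the baseline, and between tsh and tio CG11629 has the highest count, 32.

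The other Hox cluster was silent in the same way. The Hox genes of the Antennapedia complex, lab, pb, Dfd, Scr and Antp, held no more than 5 counts in a library, and the other homeobox genes there, zen, zen2, bcd and ftz, no more than 3. None of these 9 genes had enough counts to be tested. Among Hox genes abd-A was thus the single one above 6 counts in any library.

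The Hox partner exd (NCBI gene 32567, chromosome X, 15886501 to 15890029) was present at a like level in every library. Its values were 146 and 142 CPM in S2 replicates 1 and 2, 116 and 208 in S2 replicates 3 and 4, and 208 and 169 in S2-AbdA. The groups overlap, and the lowest value, in S2 replicate 3, and the highest, in S2 replicate 4, belong to the same set. Set against S2 replicates 1 and 2, the log2 fold change in S2-AbdA came to 0.35 with an SE of 0.35 and missed the threshold (adjusted p = 0.823). Over S2 replicates 3 and 4 it was -0.07 (SE 0.35, adjusted p = 0.894), with the sign turning to 0.22 on library size alone and 0.03 with upper quartile scaling. Between the S2 sets exd was not past the test (0.42, adjusted p = 0.37), but with a correction on exonic length, added after the data were seen, it was higher in S2 replicates 3 and 4 (0.96, adjusted p = 0.0188).

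The partner that brings Exd into the nucleus was close to absent. The gene hth (NCBI gene 41273, chromosome 3R, 6333283 to 6465233) held 1, 0, 0 and 3 counts in S2 replicates 1 to 4, and 3 and 1 in S2-AbdA. Its long span covers 1 other row, mir-4944, which was at 0 in all libraries. With at most 0.0633 CPM in S2-AbdA replicate 1, no difference was detectable. Of the other TALE homeobox genes, achi (a TGIF-type gene) stood at 19.0 to 30.3 CPM and mirr (an Iroquois gene) at 0.222 to 0.613 CPM, and the Iroquois genes ara and caup held at most 6 counts in a library.

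The exception in the TALE class was vis, the neighbour and near copy of achi, so that counts of the pair are uncertain where reads could be split. In S2 replicates 1 and 2 vis was at 10.3 and 10.7 CPM, in S2 replicates 3 and 4 at 0.685 and 0.372, and in S2-AbdA at 0.78 and 0.993. It was the 1 of 4 tested TALE genes that fell against S2 replicates 1 and 2 (log2 fold change -3.60, SE 0.51, adjusted p = 0.00109, and 0.648 with all 4 S2 libraries as 1 group). None rose, and the median of the 4 was -0.32 beside -0.02 over all genes tested. Against S2 replicates 3 and 4 none of the 4 passed the test (vis 0.38, adjusted p = 0.585), where 31.8% of all genes did. Of the proteins that hold Exd in the cytoplasm or export it, the non-muscle myosin gene zip stood at 127 to 467 CPM and the exportin gene emb at 59.1 to 360, and neither passed the test against S2 replicates 1 and 2 (-0.37 and -0.98, adjusted p = 0.891 and 0.269) or against S2 replicates 3 and 4 (0.15 and 0.50, adjusted p = 0.821 and 0.401). Against S2 replicates 1 and 2, emb was lower past the test in 4 of 16 alternatives, those without S2 replicate 3 or 4, in replicates 1 and 2 alone and in the replicate block, with adjusted p down to 0.0198. Against S2 replicates 3 and 4 both passed without S2 replicate 4, the setting in which the most genes of the whole table were called. From the first S2 set to the second, emb was lower by the same test (-1.48, adjusted p = 0.034).

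The trunk gene tsh (NCBI gene 35430, chromosome 2L, 21828593 to 21837011) was highest in the S2-AbdA cells. It held 3785 and 4713 counts there (79.8 and 102 CPM), 1122 and 1958 in S2 replicates 1 and 2 (32.8 and 44.7 CPM) and 289 and 996 in S2 replicates 3 and 4 (5.35 and 14.3 CPM). The 3 sets do not overlap, and S2-AbdA was above every S2 library, as it was for 16.7% of all tested genes. The S2-AbdA mean CPM was 2.34 times that of S2 replicates 1 and 2 and 9.26 times that of S2 replicates 3 and 4. These ratios leave out the scaling factors of the fit described below.

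Against S2 replicates 3 and 4, tsh was higher in S2-AbdA (log2 fold change 2.96, SE 0.44, adjusted p = 0.00116), in a comparison where 14.7% of all genes were higher and 17.1% lower. That call held in all 13 alternatives, with values from 2.44 to 3.53. Against S2 replicates 1 and 2 the value was 1.19 (SE 0.41) and missed the threshold (adjusted p = 0.124), and 7 of 16 alternatives called it. A fit of replicates 1 and 2 of both groups alone gave 1.22 (adjusted p = 0.00311), with the replicate number as a block 1.22 (adjusted p = 0.00493), without S2 replicate 3 1.20 (adjusted p = 0.00112) and without S2 replicate 4 1.19 (adjusted p = 0.00369). DESeq2 gave 1.22 (adjusted p = 0.0404). The authors' deposited table lists tsh at 1.19 with a false discovery rate (FDR) of 0.000815. In the counts tsh also passed with no filter (1.19, adjusted p = 0.0475) and with a correction on exonic length (1.26, adjusted p = 0.0167). The call thus turned on the libraries kept and on the test, the filter and the length correction. Between the S2 sets tsh was lower in S2 replicates 3 and 4 (-1.77, SE 0.42, adjusted p = 0.0141, and 0.109 without S2 replicate 2).

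The paralogue tio (NCBI gene 44272, chromosome 2L, 22019322 to 22025734) was scarcer, and its libraries stood in nearly the same order. It held 107 and 108 counts in S2-AbdA (2.26 and 2.33 CPM), 48 and 40 in S2 replicates 1 and 2 (1.40 and 0.914 CPM) and 15 and 43 in S2 replicates 3 and 4 (0.278 and 0.616 CPM). Here too S2-AbdA was above every S2 library. The log2 fold change was 2.07 over S2 replicates 3 and 4 (SE 0.47, adjusted p = 0.0129), called in all 13 alternatives. Over S2 replicates 1 and 2 it was 0.95 (SE 0.45, adjusted p = 0.312), called in none of 16. The authors' deposited table lists tio at 1.01 with an FDR of 0.037, and holds abd-A, tsh and tio but none of the other 4 genes. Between the S2 sets tio was lower in S2 replicates 3 and 4 (-1.11, adjusted p = 0.0979), a call kept in 7 of 13 alternatives and lost without S2 replicate 1 (-0.78, adjusted p = 0.446), 2 (-1.42, adjusted p = 0.211) or 3 (-0.82, adjusted p = 0.302), and without S2-AbdA replicate 1 or 2 (adjusted p = 0.129 and 0.128).

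**Figure D3:**
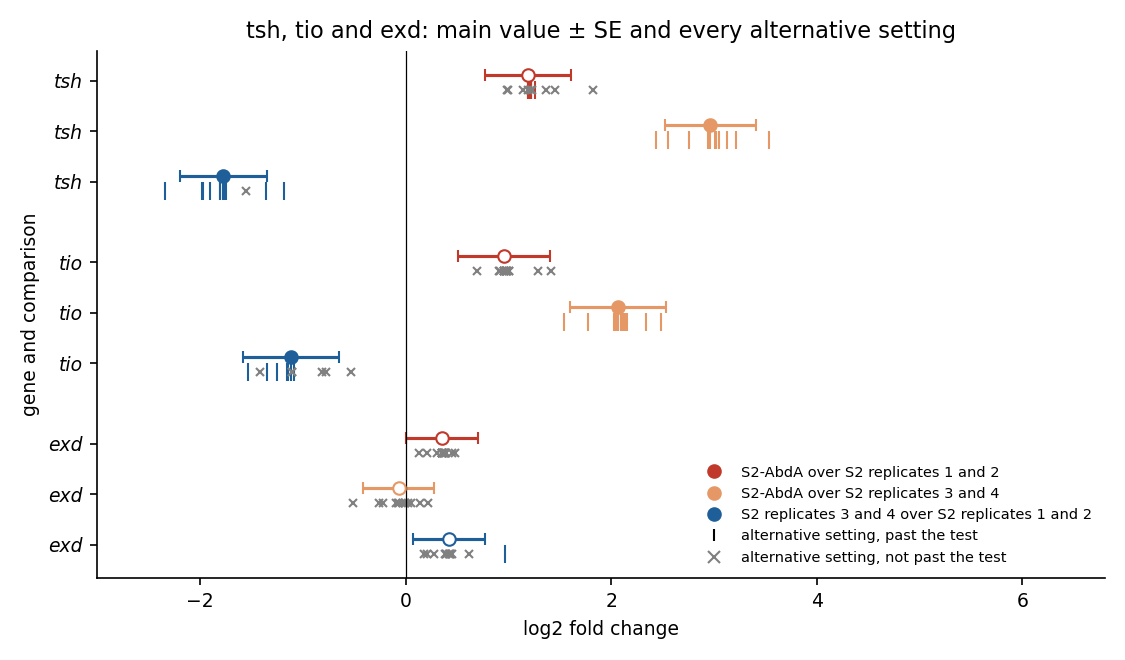
Log2 fold changes of tsh, tio and exd in 3 comparisons, with the main value and its SE (circle filled where the adjusted p was under 0.10) above the value under each alternative setting. For tsh over S2 replicates 1 and 2 the main value is 1.19 and open, with 7 of its 16 alternatives past the test, and over S2 replicates 3 and 4 the main value is 2.96 and every alternative is past the test.

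A ratio within a library does not depend on how libraries are scaled. There were 0.384 and 0.601 tsh counts for each exd count in S2-AbdA, 0.225 and 0.315 in S2 replicates 1 and 2 and 0.046 and 0.0685 in S2 replicates 3 and 4, again with no overlap between the sets. For abd-A the same ratio was 83.2 and 64.5 in S2-AbdA. The share of tio in the counts of tsh and tio together was 2.75% (exact 95% interval 2.26 to 3.31) and 2.24% (1.84 to 2.70) in S2-AbdA. It was 4.10% (3.04 to 5.40) and 2.0% (1.43 to 2.72) in S2 replicates 1 and 2 and 4.93% (2.79 to 8.01) and 4.14% (3.01 to 5.53) in S2 replicates 3 and 4. S2 replicate 2 sat with the S2-AbdA libraries in this share, so S2-AbdA and S2 overlapped.

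The 182310 bases between tsh and tio hold 9 annotated rows, and 8 of them had at most 3 counts in any library. The exception, CG11629, held 7, 8, 5 and 7 counts in S2 replicates 1 to 4 and 32 and 19 in S2-AbdA. Its log2 fold change was 1.44 over S2 replicates 1 and 2 (adjusted p = 0.148) and 2.16 over S2 replicates 3 and 4 (adjusted p = 0.0208). Outside the pair, the next row before tsh, CG31612, was at 13.0 and 16.0 CPM in S2-AbdA and 3.30 to 11.8 in S2 (0.57, adjusted p = 0.658, and 1.14, adjusted p = 0.0738). For CG41434, the next row after tio (now Grl40a), the log2 fold changes were -0.12 (adjusted p = 0.997) and 2.61 (adjusted p = 0.0281). It held 12, 66, 4 and 11 counts in S2 replicates 1 to 4 and 55 and 29 in S2-AbdA, so the groups overlap. The flanking rows were thus higher in S2-AbdA than in S2 replicates 3 and 4 as well, as 14.7% of all genes were. None of these 3 rows passed the test against S2 replicates 1 and 2.

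Long genes as a class were lower in S2 replicates 3 and 4. The exons of tsh, tio and exd add up to 4732, 5708 and 3302 bases in the later annotation. Genes of like length were those from 0.8 times a gene's exonic length up to its length divided by 0.8. Over the 1143 tested genes of like length to tsh, the median log2 fold change against S2 replicates 3 and 4 was 0.53 in S2-AbdA, and over the 906 genes near the length of tio 0.52. Over S2 replicates 1 and 2 these medians were 0.02 and 0.05. With the correction on length, tsh was at 2.44 and tio at 1.54 over S2 replicates 3 and 4, both still past the test (adjusted p = 0.00121 and 0.0284), while the difference of tio between the S2 sets no longer passed it (-0.53, adjusted p = 0.315). Blood-cell markers also moved between the sets: compared with S2 replicates 1 and 2, 7 of the 11 were lower and none higher in S2 replicates 3 and 4 (18.9% and 18.1% of all genes). In S2-AbdA 5 fell (4 to 7 with 1 library left out, and 7.36% of all genes), led by the scavenger receptor gene Sr-CI (-4.56, adjusted p = 0.000959). With all 4 S2 libraries as 1 group the falls of Sr-CI, eater, nimC1 and Pxn were not called (adjusted p = 0.653, 0.663, 0.681 and 0.236). Against S2 replicates 3 and 4 the direction of Sr-CI (2.28, adjusted p = 0.0319), eater (2.36, adjusted p = 0.0232) and nimC1 (2.78, adjusted p = 0.0367) was the opposite. These 3 calls were lost without S2-AbdA replicate 2, and those of Sr-CI and eater also without S2 replicate 3 or 4. The call of Pxn, which was lower against S2 replicates 3 and 4, was likewise lost without S2 replicate 3 or 4. The gene nimC1 held 8 and 12 counts in S2-AbdA and 0 and 3 in S2 replicates 3 and 4. There 3 markers were higher and 1, Pxn, was lower (14.7% and 17.1% of all genes), with 2 to 5 called when 1 library was left out. Their part in the tsh and tio differences was not tested. In bulk RNA, fewer cells that express a gene and less RNA per cell cannot be told apart.

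Per kilobase of exon the order of the genes in S2-AbdA was abd-A, exd, tsh and tio, at means of 2574, 57.1, 19.2 and 0.402 CPM per kb. No neighbours in that order overlapped between libraries. In S2 replicates 1 and 2 exd came first (44.1 and 43.0 CPM per kb), and tsh (6.93 and 9.45) and abd-A (5.31 and 9.63) overlapped, ahead of tio (0.246 and 0.16). In S2 replicates 3 and 4 the order was exd (35.3 and 63.1), tsh (1.13 and 3.01) and tio (0.0486 and 0.108). These levels divide by all annotated exons of abd-A, 5477 bases of which 1770 are coding, and the sources do not say which of them the transgene holds.

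Genes listed as known Hox targets were mostly silent, and those that were expressed did not move one way. Of 20 such genes, 19 had a row, 1 (edge) is not analysed here, and 11 of the 19 held at most 7 counts in any library, among them wg, Dll, salm, Con and opa. Of the 8 tested, which include tsh, against S2 replicates 1 and 2 none rose and 1 fell, beside 3.0% and 7.36% of all genes. Their median was -0.12 beside -0.02 over all genes. The number called was 4 in replicates 1 and 2 alone, 3 in the replicate block, and 2 with DESeq2 or with no filter. Over all genes these settings called 1744, 1592, 1053 and 1280, against 971. With all S2 libraries as 1 group 0 targets were called, and 46 over all genes. Without S2 replicate 3 or 4 more targets were called, as were more of all genes. The one that fell was rpr, an activator of cell death. It stood at 21.5 and 28.9 CPM in S2 replicates 1 and 2, 1.57 and 0.787 in S2 replicates 3 and 4 and 4.28 and 5.33 in S2-AbdA (-2.43, SE 0.47, adjusted p = 0.00684, and 0.696 with all 4 S2 libraries as 1 group), so that the S2-AbdA libraries lay between the S2 sets. Its S2-AbdA level exceeded that of S2 replicates 3 and 4 (1.64, adjusted p = 0.0344, and 0.111 without S2-AbdA replicate 2).

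The BMP ligand gene dpp, which Ubx activates and AbdA represses in the midgut of the embryo, was at 2.26 and 2.48 CPM in S2-AbdA, 2.72 and 3.18 in S2 replicates 1 and 2 and 0.0185 and 0.0716 in S2 replicates 3 and 4. Its value was -0.35 (adjusted p = 0.882) against S2 replicates 1 and 2 and 5.30 (SE 0.59, adjusted p = 0.000232) against S2 replicates 3 and 4, which held 1 and 5 counts. The wing gene vg was below 1 CPM in every library, at -1.48 (adjusted p = 0.118) and 2.68 (adjusted p = 0.0275, and 0.184 without S2-AbdA replicate 2). In all, 5 of the 8 were higher than in S2 replicates 3 and 4 (tsh, dpp, vg, rpr and the tubulin gene betaTub60D) and 1 was lower (rho), where 14.7% and 17.1% of all genes were. With 1 library left out the number of targets called changed. It was lowest without S2-AbdA replicate 2, as it was over all genes. The calls of betaTub60D (1.10, adjusted p = 0.0522) and rho (-0.84, adjusted p = 0.0965) were lost without S2 replicate 1 or 2 or either S2-AbdA library, at adjusted p values of 0.102 to 0.376. That of rho was also lost on library size alone, with upper quartile scaling, with DESeq2 size factors and with no filter (adjusted p = 0.239, 0.125, 0.122 and 0.118). Between the S2 sets 4 of the 8 were lower and 1 higher in S2 replicates 3 and 4, beside 18.9% and 18.1% of all genes. The 2 comparisons with S2-AbdA share its libraries.

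Genes for proteins that work beside Hox proteins did not pass the test. Of 13, 6 were tested and 7 held at most 22 counts in a library, the highest being en in S2-AbdA replicate 2. None of the 6 rose or fell against either S2 set, with medians of -0.05 and 0.31. M1BP (row CG9797), a promoter-pausing factor known to act with AbdA in this line, was at 61.5 and 52.7 CPM in S2 replicates 1 and 2, 37.4 and 64.1 in S2 replicates 3 and 4 and 32.8 and 58.4 in S2-AbdA. The groups overlap (-0.36, adjusted p = 0.85, and -0.44, adjusted p = 0.417). The smallest p in the list was that of Mad, a BMP effector that binds DNA beside Hox proteins, against S2 replicates 3 and 4 (0.74, adjusted p = 0.186). Against S2 replicates 3 and 4 the list held calls without any 1 of the S2 libraries or without S2-AbdA replicate 1. It held the most without S2 replicate 4, where the number called over all genes was also highest. Against S2 replicates 1 and 2, 1 was called in replicates 1 and 2 alone and in the replicate block. Over all genes these settings called 1744 and 1592, against 971. Without S2 replicate 3 or 4 the list also held a call there, and more of all genes were called.

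Of the 12 genes that work with tsh in the eye, wing and trunk, 7 were tested. Against S2 replicates 1 and 2 none rose and 1 fell, beside 3.0% and 7.36% of all genes. The eye selector gene ey stood at 2.39 and 1.42 CPM in S2 replicates 1 and 2, 0.389 and 0.673 in S2 replicates 3 and 4 and 0.464 and 0.777 in S2-AbdA (-1.65, SE 0.48, adjusted p = 0.0609). Its call was lost without S2 replicate 1 (adjusted p = 0.488) or S2-AbdA replicate 1 (adjusted p = 0.477). Against S2 replicates 3 and 4, 2 were higher and none lower, beside 14.7% and 17.1% of all genes. They were the growth regulator yki (0.92, adjusted p = 0.0855) and the nuclear factor gene dac (1.41, adjusted p = 0.0884). In S2 replicates 1 to 4 dac held only 5, 6, 5 and 6 counts, and in S2-AbdA 15 and 13. The calls of yki and dac were both lost with S2 replicate 1, S2 replicate 2 or either S2-AbdA library left out. That of dac was also lost without S2 replicate 3 or 4. On all 6 libraries dac lost its call with the DESeq2 test, with no filter and with the length correction (adjusted p = 0.278, 0.182 and 0.26). With no filter yki lost its call too (adjusted p = 0.109). The median of the 7 was -0.06 against S2 replicates 1 and 2 and 0.56 against S2 replicates 3 and 4.

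**Figure D4:**
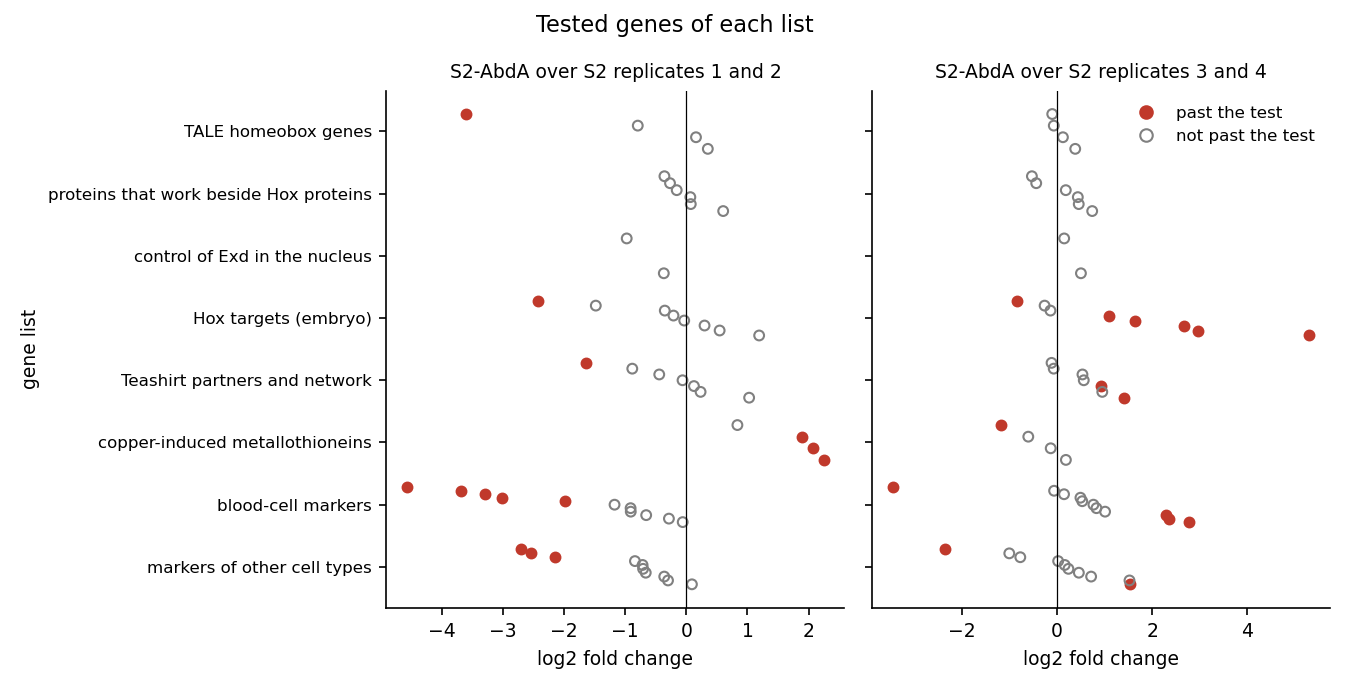
Log2 fold change of each tested gene of 8 fixed lists, against S2 replicates 1 and 2 (left) and against S2 replicates 3 and 4 (right), in red where the adjusted p was under 0.10. Of the 8 tested Hox targets 1 is red on the left, at -2.43, and 6 are red on the right, the highest at 5.30.

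Copper-inducible metallothionein genes, whose products bind the metal added to all cultures, also differed between the libraries. MtnA was at 1204 and 2571 CPM in S2 replicates 1 and 2, 7342 and 4684 in S2 replicates 3 and 4 and 3854 and 3071 in S2-AbdA. All 4 tested members were higher in S2 replicates 3 and 4 than in the first S2 set, as 18.1% of all genes were. Without S2 replicate 3, MtnB, MtnD and MtnE lost that call (adjusted p = 0.573, 0.135 and 0.171), and without S2 replicate 1, MtnA and MtnB (adjusted p = 0.124 and 0.234). Against S2 replicates 1 and 2, where 3.0% of all genes rose, 3 of 4 rose in S2-AbdA, MtnB, MtnD and MtnE (1.89, 2.24 and 2.07, adjusted p = 0.0822, 0.0233 and 0.0259), which without S2 replicate 1 were at adjusted p values of 0.383, 0.183 and 0.253, and in the replicate block at 0.17, 0.164 and 0.183. Without S2 replicate 3 or 4, 1 of the 4 was called, and without S2-AbdA replicate 1, 2. Against S2 replicates 3 and 4 none rose and MtnA was lower (-1.18, adjusted p = 0.089), a call kept in 4 of 13 alternatives. The S2 libraries with over 3 abd-A counts were thus those with the least MtnA, and its part in the abd-A level was not tested.

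Many genes followed these patterns across the 6 libraries, so the likeness described next is not particular to the genes named. Pearson's r of log2(CPM + 0.1) was taken over the 6 libraries, which fall into 3 sets, against 4823 or 4824 genes of at least 5 CPM in a library and a range of at least 1. The 5 genes most like abd-A were mp, which encodes a multiplexin collagen, CG15784, the sulfonylurea receptor gene Sur, the neprilysin gene Nep2 and the protease gene Jon25Bii, at r of 0.991 to 0.997, and 102 genes lay above 0.95. Of these CG15784 was the most abundant, at 447 and 555 CPM in S2 replicates 1 and 2, 142 and 166 in S2 replicates 3 and 4 and 2855 and 2362 in S2-AbdA. Sur stood at 8.27 and 9.89, 1.33 and 2.36, and 96.5 and 74.5 CPM in the same sets. The 5 most like tsh were CG42268, CG13124, the mucin gene Muc68Ca, CG8116 (now TMEM216) and CG11760, at r of 0.996 to 0.999, and 215 genes lay above 0.95. CG13124, the most abundant of them, was at 292 and 322, 82.7 and 157, and 483 and 643 CPM. The 5 most like tio were CG2909, CG4629, the glutathione synthesis gene Gclc, raw and cactin (0.986 to 0.992). Those most like exd were CG8184 (now HUWE1), the nucleoporin gene Nup160, CG17209 (now Polr3A), CG9086 (now Ubr1) and the mismatch repair gene Msh6 (0.987 to 0.997). Among the 5 genes most like tio there was no tsh. The reverse could not be seen, since tio, at 2.33 CPM or less, was below the 5 CPM required.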

How the data were processed

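Poly(A) RNA of 6 libraries was analysed. The authors deposited unnormalized counts for each gene in each library, with dm3 coordinates in the row names. Per the submitters' processing notes, CASAVA, edgeR and the dm3 build were used, with no version or role stated. No source used here gives the aligner, the counter or the strand setting, so reads of overlapping or antisense genes cannot be told apart. The authors' deposited table of 2122 genes holds 2 columns of log2 values, p-values and false discovery rates. Set against the counts, its log2 headings are exchanged: logConc follows the ratio of S2 to S2-AbdA (r across genes of -0.946 with the opposite ratio), which was turned around before use.

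With filterByExpr on the 3 library sets, 9375 of 14770 genes were tested, scaled by trimmed mean of M-values. The scaling factor was 0.752 for S2 replicate 3 and between 1 and 1.1 for the other libraries, and CPM does not include it. All 6 libraries entered 1 edgeR 4.0.16 fit (R 4.3.3) with an indicator for S2 replicates 3 and 4, and the robust quasi-likelihood F test was adjusted by Benjamini-Hochberg over all genes tested, with a threshold of 0.10. The fit had 3 residual degrees of freedom and a common biological coefficient of variation of 0.291. Each standard error is the absolute fold change on the log2 scale divided by the root of its F. The fit was run on simulated data with known changes in S2-AbdA. The simulation held no difference between the S2 sets, so it does not cover that feature of the data. CPM is counts over the library's total. Exact intervals are Clopper-Pearson and, like the floor of 3 counts, cover counting error only. Current symbols and exonic lengths came from RefSeq (Release 6) and Ensembl annotations through the NCBI gene number, for 14468 rows, and no coordinate was taken from them.

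Named genes were the 7 genes, rows that overlap them, lie in the bithorax complex or lie between tsh and tio, up to 4 genes of smallest adjusted p from each of 10 lists, and the 5 genes most like each tested gene. Flanking rows, other list genes, Ef1alpha48D and the rows that share the abd-A pattern were added after the values were seen. The genes and lists were chosen with earlier results of these data known. Alternatives were library-size, upper quartile and DESeq2 scaling, the DESeq2 1.42.0 test, no filter, each library left out, all S2 libraries as 1 group, replicates 1 and 2 only, and the replicate block; abd-A left out of the library sizes and a correction on exonic length were added after seeing the data.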

Additional observations from a re-analysis of the deposited data

Results flagged for a closer look

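Of 54 genes examined for an S2 library that stood apart from the other 3, 3 were found by Dixon's criterion, and chance finds about 5% of such groups. In each it was S2 replicate 3 that was low. CPM does not include the scaling factors, of which the lowest (0.752) was that of S2 replicate 3. The GAGA factor gene Trl was at 16.0 CPM there against 41.1 to 45.9 in the other S2 libraries. The bZIP gene cnc was at 26.0 CPM against 68.2 to 76.8. The myosin gene zip was at 127 CPM against 409 to 467.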

How the results depend on the processing

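Of the 168 recomputed log2 fold changes of abd-A, exd, tsh and tio, 148 kept their direction and their side of the threshold. The abd-A call over S2 replicates 1 and 2 was lost with all S2 libraries as 1 group (9.39). Over the same set tsh passed the test with DESeq2 (1.22), with no filter (1.19), with the length correction (1.26), in replicates 1 and 2 alone (1.22) and in the replicate block (1.22). The sign of exd over S2 replicates 3 and 4 turned on library size alone (0.22) and with upper quartile scaling (0.0273). Between the S2 sets the length correction brought exd past the test (0.96) and lost tio (-0.53). The cause was not tested.

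With each library left out, values over S2 replicates 1 and 2 ran from 8.02 to 8.90 for abd-A, 0.98 to 1.46 for tsh, 0.69 to 1.28 for tio and 0.21 to 0.48 for exd. Over S2 replicates 3 and 4 they ran from 2.55 to 3.53 for tsh, 1.77 to 2.49 for tio and -0.26 to 0.14 for exd, which was 0.14 with S2 replicate 4 left out and 0.05 with S2-AbdA replicate 2 left out. Between the S2 sets they ran from -2.34 to -1.36 for tsh and -1.53 to -0.78 for tio. A lone library left in a set is assumed to vary like the others. Numbers of genes called ran from 658 to 1829 over S2 replicates 1 and 2, 1054 to 5992 over S2 replicates 3 and 4 and 1048 to 6354 between the S2 sets. Over S2 replicates 1 and 2 they were 46 with all S2 libraries as 1 group, 1744 in replicates 1 and 2 alone and 1592 in the replicate block, against 971.

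Library size alone moved the median of all genes over S2 replicates 3 and 4 to 0.30, with 66.3% of calls higher in place of 46.3%, and between the S2 sets to -0.27 (30.4% in place of 48.9%). Upper quartile scaling moved the latter to -0.15 (37.1%). Same-numbered libraries of S2 and S2-AbdA showed no shared deviation (r = -0.00683 across genes). With 1 difference in each group, this cannot decide whether the numbers pair them. A pseudocount of 1 CPM kept 3 of the 5 genes most like abd-A, 3 for tsh and 1 for tio. With at most 6 counts, Ubx, Abd-B and hth are limited by depth.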
